A study of Mus musculus with 24 samples.

Results

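The genes described here are 10 that mark the vascular endothelium, the cell layer that lines blood vessels: Kdr, Flt1, Tie1, Tek, Cdh5, Pecam1, Esam, Cldn5, Emcn and Egfl7. They were chosen by name, as established endothelial genes and with earlier results of these data known, from the 56748 genes of the count table. Each was found once by its identifier. RNA was sequenced from the dental mesenchyme of the first mandibular molar of ICR mouse embryos in 24 libraries, which fall into 8 groups of 3. The undivided mesenchyme came from E13, the cap stage (Cap-W), and from E15, the bell stage (Bell-W). Other tooth germs were cut with a needle into a lingual part, on the tongue side, and a buccal part, on the cheek side. The mesenchyme then isolated from each part gave Cap-L, Cap-B, Bell-L and Bell-B. Cap-stage parts kept in vitro for 2 days gave Cap-L+2D and Cap-B+2D. No genetic change and no added agent is named for any group. The tissue was pooled from several embryos and freed of the overlying epithelium with dispase II. The sample labels call all groups mesenchymal cells, while the series text speaks of whole tooth germs for Cap-W and Bell-W, so that more than mesenchyme may be in those 6 libraries. The cultured parts have no blood flow, and no undivided mesenchyme was cultured.

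Endothelial cells line every vessel and grow new ones by sprouting. VEGF-A, made by the surrounding tissue, binds the receptor Kdr on endothelial cells and drives their division and migration, while Flt1 binds the same ligand tightly and holds it back from Kdr. Tek is the receptor of the angiopoietins, Angpt1 as its activating ligand and Angpt2 as the ligand that sprouting endothelium releases itself, and Tie1 is its partner on the membrane. Neighbouring endothelial cells are held together by Cdh5 (VE-cadherin) in adherens junctions, by Cldn5 in tight junctions, and by the adhesion molecules Pecam1 and Esam. Emcn is a sialomucin of capillary and venous endothelium, and Egfl7 is a protein that endothelial cells secrete into their matrix. The dental papilla is known to be invaded by vessels as the tooth germ passes from the cap to the bell stage.

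Levels are given as normalised CPM, which are counts per 1000000 after TMM scaling of the library totals over all 24 libraries. Library totals lay between 20581720 and 39266497 counts, and a floor of 3 counts corresponded to between 0.0842 and 0.159 normalised CPM. The smallest count of a member in any library was 92, for Cldn5 in Cap-W replicate 1, so that none of the 10 genes came near the floor. The libraries of the cut parts differed little within a group: their common biological coefficient of variation lay between 0.0177 and 0.0582, against 0.245 in Cap-W and 0.217 in Bell-W. Nothing in the labels says that the 3 libraries of a group came from separate animals, so p-values measure the spread between these libraries, which may be technical. In the undivided mesenchyme, Cap-W replicate 1 and Bell-W replicate 3 stood apart from the others of their groups, and the summed level of 9 epithelial genes was 1804 normalised CPM in Bell-W replicate 3 against 509 and 452 in the other libraries of Bell-W. Epithelial genes were read in the cut parts as well. Krt5 averaged 374 normalised CPM and Epcam 34.4 in Bell-L, against 250 and 22.1 in Bell-W replicate 1. Krt8 (2.19 against 3.22) and Krt18 (11.2 against 15.8) were lower in Bell-L. The 8 marker genes of dental mesenchyme summed to between 1848 and 3616 normalised CPM, so that the labelled tissue was present in every library. In bulk tissue, fewer endothelial cells and less RNA of a gene per cell cannot be told apart.

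All 10 genes were detected in all 24 libraries. Per kilobase of exon, which allows genes to be compared with each other, Cdh5 had the highest level in all 8 groups, from 13.5 ± 0.26 normalised CPM per kilobase in Cap-B+2D to 42.6 ± 1.1 in Bell-L (SD, n = 3). Flt1 had the lowest level per kilobase in 6 groups, for example 3.33 ± 0.20 in Cap-L, and Tek the lowest in Cap-L+2D (1.92 ± 0.19) and in Cap-B+2D (1.52 ± 0.089). Egfl7 was second in Cap-L, with 16.5 ± 1.6, ahead of Tie1 with 14.7 ± 0.50 and Cldn5 with 13.1 ± 1.8. Tie1 and Cldn5 are neighbours in that order whose libraries overlapped, as were Pecam1 and Esam, Esam and Kdr, and Tek and Emcn. After culture the order was another one: Cldn5 was second in both cultured groups, with 19.1 ± 0.42 in Cap-L+2D and 5.97 ± 0.73 in Cap-B+2D, and Egfl7 had 6.00 ± 0.56 and 4.21 ± 0.36.

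**Figure D1:**
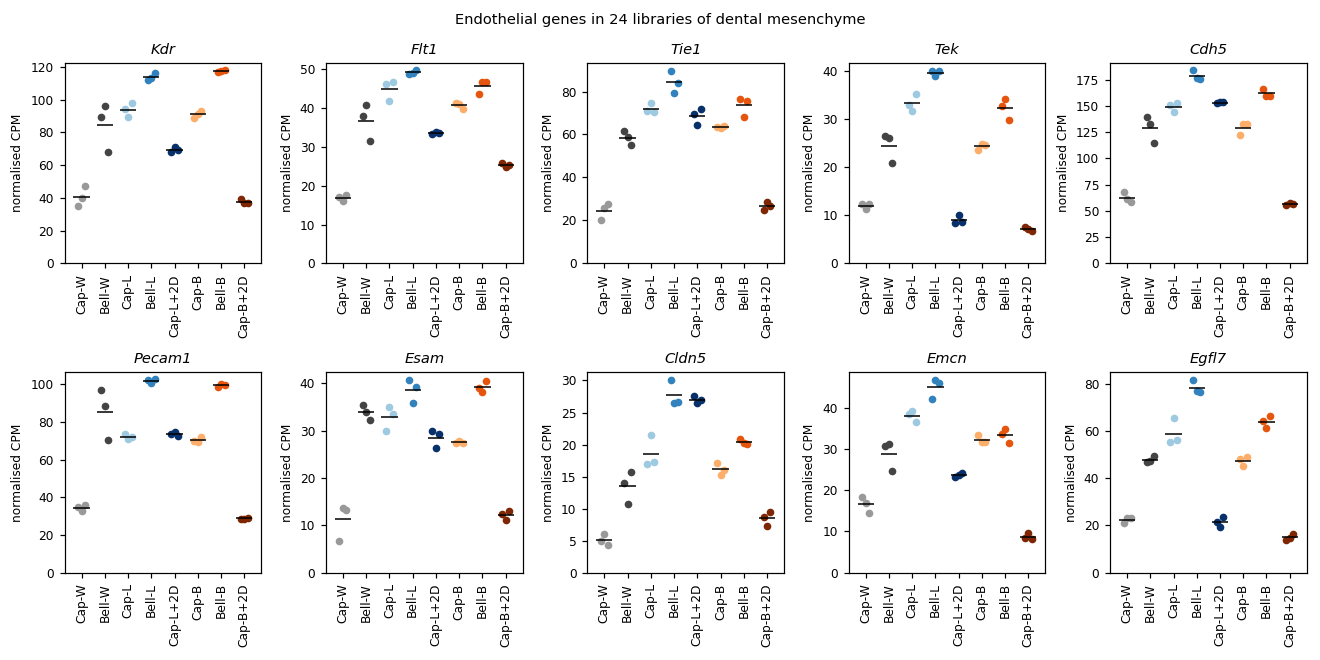
Normalised CPM (y axis, linear, from 0) of the 10 endothelial genes in each of the 24 libraries, by group (x axis). Each point is 1 library and each line the mean of 3. In all 10 panels Cap-B+2D sits below Cap-B and Bell-B, and Bell-W above Cap-W, while Cap-L+2D sits level with Cap-L for Cdh5, Pecam1 and Tie1, far below it for Tek and Egfl7, and above it for Cldn5.

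The genes lie on 8 chromosomes of GRCm39, the build of the count table. Each count covers all exons of the gene, untranslated parts included. The VEGF receptor genes are both on chromosome 5, Kdr at chr5:76093487-76139118 and Flt1 at chr5:147498414-147662821, each on the minus strand. The Tie receptor genes are both on chromosome 4, Tie1 at chr4:118328388-118347258 on the minus strand and Tek at chr4:94627526-94763213 on the plus strand. Of the junction genes, Cdh5 is at chr8:104828257-104871143 (plus), Pecam1 at chr11:106545043-106641454 (minus), Esam at chr9:37439374-37449615 (plus) and Cldn5, a gene of a single exon, at chr16:18595597-18597012 (plus). Emcn is at chr3:137046828-137137946 (plus) and Egfl7 at chr2:26470026-26483132 (plus). Egfl7 shares 11.2% of its exon bases with other genes, namely Gm20532, Mir126a, Mir126b and Agpat2, and read pairs there were not counted for either gene. The other 9 genes share no exon base with another gene.

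Several of these genes moved together, while Tek, Egfl7 and Cldn5 lay farthest from the median of the 10 in the cultured lingual part. The stretches of 250 bases before a start site of each are therefore shown beside that of Tie1, which stayed level in the lingual part. The sequences are from RefSeq on build GRCm38.p6, an older build than that of the counts, and 7 of the 10 genes were matched there, at 9 start sites (Pecam1, Cdh5 and Esam were not matched). Endothelial genes are commonly bound by ETS transcription factors, whose sites hold the letters GGAA. A pair of longer forms that contain them was searched on both strands. The motif AGGAAG is in capitals, and reads CTTCCT where it lies on the other strand. The motif CCGGAA was searched in the same way and occurs in none of the stretches shown.
Tie1, chr4:118489850-118490099, minus strand: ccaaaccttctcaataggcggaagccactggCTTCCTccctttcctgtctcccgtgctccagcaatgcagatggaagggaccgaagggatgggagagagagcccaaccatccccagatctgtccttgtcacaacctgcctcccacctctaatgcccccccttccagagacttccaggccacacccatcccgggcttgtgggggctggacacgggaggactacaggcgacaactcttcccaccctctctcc
Tek, chr4:94739039-94739288, plus strand: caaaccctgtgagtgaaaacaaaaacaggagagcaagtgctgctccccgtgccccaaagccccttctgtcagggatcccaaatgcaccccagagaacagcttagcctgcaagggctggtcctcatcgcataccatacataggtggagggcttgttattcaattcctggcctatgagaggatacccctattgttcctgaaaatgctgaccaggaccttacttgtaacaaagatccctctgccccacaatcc
Egfl7, first start site, chr2:26580833-26581082, plus strand: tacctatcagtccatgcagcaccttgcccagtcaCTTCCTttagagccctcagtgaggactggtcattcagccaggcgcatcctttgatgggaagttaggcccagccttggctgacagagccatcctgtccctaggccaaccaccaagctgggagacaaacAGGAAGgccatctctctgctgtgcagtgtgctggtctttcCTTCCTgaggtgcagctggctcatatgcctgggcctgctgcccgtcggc
Cldn5, chr16:18776597-18776846, plus strand: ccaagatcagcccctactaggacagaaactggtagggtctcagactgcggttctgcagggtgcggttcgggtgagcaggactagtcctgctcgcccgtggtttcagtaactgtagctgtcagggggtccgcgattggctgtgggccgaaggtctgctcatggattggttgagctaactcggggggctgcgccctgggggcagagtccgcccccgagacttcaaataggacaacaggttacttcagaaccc
In these windows Tie1 held 1 AGGAAG, the first start site of Egfl7 held 3, and Tek and Cldn5 held neither motif. The other start sites of Egfl7, which are not shown, held 1 and 0. That of Emcn, which also fell in the cultured lingual part and is not shown, held 2. AGGAAG stood before 5 of the 9 start sites and CCGGAA before 1, that of Kdr, which makes 6 with either motif. Of all 32851 promoters in the table, 29.5% held AGGAAG, 12% held CCGGAA and 38.2% held either. A match of letters is a description of the sequence only.

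Stage was compared first in the undivided mesenchyme, which asks how the tissue as a whole changes between cap and bell. All 10 endothelial genes rose from Cap-W to Bell-W, by between 1.74-fold (Emcn) and 3.00-fold (Esam). Of all 20940 genes tested, 10.3% were called higher and 14.5% in either direction. A gene was called at an adjusted p under 0.05 from the quasi-likelihood test of edgeR (Benjamini-Hochberg over all genes tested), together with an absolute log2 fold change over 0.5. The median log2 fold change of the 10 genes was 1.10, against -0.03 over all genes tested. All 10 had every Bell-W library above every Cap-W library, which 20.3% of all genes had.

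Kdr measured 34.9, 39.8 and 47.1 normalised CPM in the Cap-W libraries and 89.5, 95.9 and 67.8 in the Bell-W libraries, a log2 fold change of 1.05 ± 0.17 (SE, edgeR adjusted p = 0.00581). Flt1, which binds VEGF-A without strong signalling, measured 17.3, 16.0 and 17.6 in Cap-W and 38.0, 40.9 and 31.6 in Bell-W (log2 fold change 1.11 ± 0.13). The Flt1 to Kdr ratio of normalised CPM was 0.424 ± 0.063 in Cap-W and 0.439 ± 0.024 in Bell-W (SD, n = 3), so the receptors kept their proportion within the spread between libraries. Tie1 went from 20.3, 25.9 and 27.6 to 61.5, 59.0 and 55.1 normalised CPM, and its fold change of 2.37 was larger than that of its partner Tek, at 2.03. Tek measured 12.3, 11.4 and 12.4 in Cap-W and 26.4, 26.1 and 20.8 in Bell-W.

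Of the junction genes, Cdh5 measured 68.5, 61.3 and 58.4 normalised CPM in Cap-W and 139.5, 133 and 115 in Bell-W (log2 fold change 1.03 ± 0.12, edgeR adjusted p = 0.0018). Pecam1 measured 34.7, 32.9 and 35.9 against 97.0, 88.5 and 70.5, and rose by 1.30 ± 0.14 on the log2 scale. Bell-W replicate 3 was the lowest Bell-W library for both, and also for Kdr, Flt1, Tie1, Tek, Esam and Emcn. Esam measured 6.74, 13.6 and 13.3 in Cap-W and 35.3, 33.9 and 32.3 in Bell-W, with the lowest value in Cap-W replicate 1, as for Kdr, Tie1 and Egfl7. Its log2 fold change was 1.58 ± 0.25, the largest of the 10 genes. Cldn5 went from 4.88, 5.96 and 4.38 to 14.0, 10.7 and 15.7 (log2 fold change 1.40 ± 0.21). Emcn had the smallest change, from 18.3, 16.9 and 14.5 to 30.8, 31.3 and 24.6 (log2 fold change 0.80 ± 0.15, edgeR adjusted p = 0.0109), and Egfl7 the tightest, from 21.1, 23.1 and 23.3 to 47.1, 47.4 and 49.5 (log2 fold change 1.08 ± 0.098).

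Without Cap-W replicate 1 all 10 genes were still called, with a median log2 fold change of 1.12, and without Bell-W replicate 3 all 10 were called, with a median of 1.20. The call of Emcn was lost without Cap-W replicate 3 (edgeR adjusted p = 0.0541) or without Bell-W replicate 2 (0.0558).

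In the cut parts the same step of development came with smaller differences. From Cap-L to Bell-L, 2 of the 10 genes were called higher, Pecam1 and Cldn5, where 14.2% of the 21425 genes tested were called higher and 20.0% in either direction. The median log2 fold change of the 10 genes was 0.27, against 0.00 over all genes. All 10 had every Bell-L library above every Cap-L library, which 27.9% of all genes had. From Cap-B to Bell-B, 1 gene, Esam, was called higher, where 12.0% of 21992 genes were, and 18.7% were called in either direction. The median was 0.35, against 0.00 over all genes, and 9 of the 10, all but Emcn, had every Bell-B library above every Cap-B library, as 28.5% of all genes had.

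Pecam1 measured 73.7, 70.8 and 72.1 normalised CPM in Cap-L and 102, 100.5 and 103 in Bell-L (log2 fold change 0.51 ± 0.042, edgeR adjusted p = 1.81e-10). In the buccal part it measured 69.8, 69.5 and 72.1 in Cap-B and 98.6, 100.2 and 99.3 in Bell-B. That log2 fold change of 0.49 ± 0.036 lay just under the fold threshold, although the libraries of the stages were far apart on both sides. Cldn5 measured 16.9, 21.5 and 17.2 in Cap-L and 30.0, 26.5 and 26.7 in Bell-L (log2 fold change 0.59 ± 0.075), and 17.1, 15.2 and 16.0 in Cap-B and 20.8, 20.3 and 20.0 in Bell-B (0.34 ± 0.069). Esam measured 27.4, 27.8 and 27.4 in Cap-B and 39.0, 38.2 and 40.4 in Bell-B (log2 fold change 0.51 ± 0.052, edgeR adjusted p = 7.26e-10), and its call was lost without Cap-B replicate 3 or Bell-B replicate 3, at log2 fold changes of 0.49 and 0.48. The lingual call of Pecam1 was lost without Cap-L replicate 2, at 0.49, where Egfl7 was called in its place, at 0.50. For Pecam1 in the lingual and Esam in the buccal part the fold change lay at the threshold itself.

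The receptors changed less. Kdr differed by 0.30 ± 0.045 on the log2 scale between Bell-L and Cap-L and by 0.36 ± 0.035 between Bell-B and Cap-B, and Flt1 by 0.15 ± 0.051 and 0.16 ± 0.046, the smallest lingual difference of the 10 genes. Tie1 differed by 0.24 ± 0.050 and 0.21 ± 0.045, and Tek by 0.27 ± 0.059 and 0.40 ± 0.057. All of these differences had an edgeR adjusted p under 0.05 and none passed the fold threshold. Emcn differed by 0.26 ± 0.053 in the lingual part, while in the buccal part it measured 33.3, 31.7 and 31.7 in Cap-B and 33.6, 34.8 and 31.4 in Bell-B, which overlap (log2 difference 0.04, 95% interval -0.07 to 0.15).

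**Figure D2:**
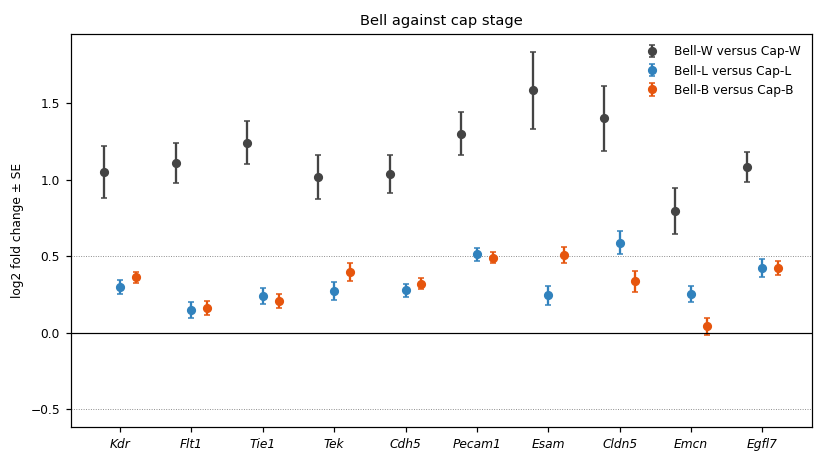
Log2 fold change of each endothelial gene (x axis) from cap to bell, with its standard error (y axis), in the undivided mesenchyme (grey), the lingual part (blue) and the buccal part (orange), each from 3 libraries against 3. Dotted lines mark the fold threshold of 0.5, and the grey points, from 0.80 to 1.58, sit above the blue and orange points in all 10 genes.

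The stage change was larger in the undivided mesenchyme than in the mean of the parts for all 10 genes, as tested over 18 libraries, by a median of 0.77 on the log2 scale, against -0.004 over all genes. In that test 9.86% of 22836 genes were higher and 16.9% differed in either direction. The difference ran from 0.65 ± 0.12 (Emcn, edgeR adjusted p = 0.00111) to 1.20 ± 0.18 (Esam, 0.000209), and for Tie1 it was 1.02 ± 0.10. That fit pools the spread of the undivided and the cut groups, which is unlike. Its standard errors are smaller than those of Bell-W versus Cap-W alone, 0.15 for Emcn, 0.25 for Esam and 0.14 for Tie1. The errors and p-values of the difference are therefore likely too small. All 10 remained called without Cap-W replicate 1, with a median of 0.80, and without Bell-W replicate 3, with a median of 0.84. The levels show where the groups part. Summed over the 10 genes, Cap-W had 246.8 ± 7.72 normalised CPM, against 613.6 ± 4.31 in Cap-L and 542.7 ± 7.43 in Cap-B, which is 2.49 and 2.20 times the level of the undivided tissue. At the bell stage the sums were 542.8 ± 52.3 in Bell-W, 757.2 ± 14.4 in Bell-L and 686.9 ± 5.55 in Bell-B. Both cap-stage parts were thus above the libraries labelled as undivided, whose tissue the labels and the series text describe differently. Whether the undivided and cut samples were dissected or prepared differently was not tested, and the levels of skeletal muscle genes in the same groups are given with the other cell types.

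Culture was compared with the fresh cap-stage part of the same side, which asks what becomes of the endothelial genes in vitro. In the lingual part 3 of the 10 genes fell, Tek, Egfl7 and Emcn, and 1, Cldn5, rose. Of 21425 genes, 15.9% were called lower and 19.6% higher, 35.4% in either direction. The median log2 fold change of the 10 was -0.32, against -0.03 over all genes. Bell-L versus Cap-L and Cap-L+2D versus Cap-L use the same Cap-L libraries, as the buccal comparisons use the same Cap-B libraries.

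Tek, the angiopoietin receptor, fell most. It measured 32.9, 31.6 and 35.3 normalised CPM in Cap-L and 8.41, 10.1 and 8.72 in Cap-L+2D, a 3.68-fold lower level (log2 fold change -1.88 ± 0.071, edgeR adjusted p = 1.22e-17). Tie1 measured 71.0, 74.8 and 70.3 in Cap-L and 69.6, 64.6 and 71.8 in Cap-L+2D, which overlap (log2 fold change -0.08, 95% interval -0.18 to 0.03). The Tek to Tie1 ratio of normalised CPM was 0.462 ± 0.040 in Cap-L, 0.471 ± 0.024 in Bell-L and 0.133 ± 0.020 in Cap-L+2D (SD, n = 3). Egfl7 measured 55.2, 65.6 and 56.1 in Cap-L and 21.6, 19.4 and 23.4 in Cap-L+2D (log2 fold change -1.46 ± 0.067, edgeR adjusted p = 6.72e-16). Emcn measured 38.4, 39.2 and 36.6 in Cap-L and 23.2, 23.6 and 24.2 in Cap-L+2D (log2 fold change -0.69 ± 0.056). For these 3 genes the cultured libraries lie wholly below the fresh ones, as they did for 6 of the 10 genes and for 33.4% of all genes.

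Cdh5 and Pecam1, which hold endothelial cells together, differed little in the cultured lingual part. Cdh5 measured 151, 144 and 152 normalised CPM in Cap-L and 152, 153 and 153 in Cap-L+2D, with a log2 fold change of 0.03 and a 95% interval of -0.06 to 0.12. Pecam1 measured 73.5, 74.9 and 72.7 in Cap-L+2D, overlapping with Cap-L, and its log2 fold change was 0.02 (95% interval -0.07 to 0.11). Esam measured 30.0, 35.0 and 33.4 in Cap-L and 29.9, 26.2 and 29.4 in Cap-L+2D (-0.21 ± 0.065, edgeR adjusted p = 0.00578), lower in every cultured library but under the fold threshold. Cldn5 measured 27.6, 26.5 and 26.9 in Cap-L+2D, above all Cap-L libraries (log2 fold change 0.53 ± 0.075, edgeR adjusted p = 1.01e-06). That call was lost without Cap-L replicate 1 (0.45) or Cap-L replicate 3 (0.47). Kdr, at 68.3, 70.9 and 69.2 in Cap-L+2D against 94.2, 89.1 and 97.7 in Cap-L, and Flt1, at 33.3, 34.0 and 33.5 against 46.2, 41.9 and 46.9, lay lower in every library, at log2 fold changes of -0.44 ± 0.046 and -0.43 ± 0.053, which did not reach the fold threshold. Scaling matters here. With unscaled library totals the median of all genes moved to -0.18, the log2 fold change of Cldn5 fell to 0.37, and Kdr and Flt1 reached -0.59 and -0.58 and were called lower.

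In the buccal part all 10 genes fell in culture, where 16.6% of 21992 genes were called lower and 34.5% in either direction. The median log2 fold change of the 10 was -1.30, against -0.02 over all genes. All 10 had every cultured library below every fresh one, as 32.7% of all genes had. Emcn fell most, from 33.3, 31.7 and 31.7 normalised CPM in Cap-B to 8.36, 9.50 and 8.17 in Cap-B+2D (3.82-fold lower, log2 fold change -1.93 ± 0.066, edgeR adjusted p = 9.41e-23). Tek went from 23.7, 24.9 and 24.6 to 7.63, 7.11 and 6.80 (3.47-fold lower) and Egfl7 from 48.3, 45.4 and 49.0 to 14.0, 14.7 and 16.5 (3.24-fold lower). These are the 3 genes that fell in the lingual part too.

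The junction genes, of which none was called lower in the cultured lingual part, all fell in the cultured buccal part. Cdh5 measured 122, 133 and 133 normalised CPM in Cap-B and 55.5, 57.7 and 56.6 in Cap-B+2D (log2 fold change -1.23 ± 0.039, edgeR adjusted p = 1.43e-23). Pecam1 measured 28.6, 28.7 and 28.8 in Cap-B+2D (log2 fold change -1.33 ± 0.041), Esam 12.3, 11.1 and 13.1 (-1.21 ± 0.061), and Cldn5 8.62, 7.35 and 9.39 (-0.96 ± 0.078). Of the receptors, Kdr measured 88.6, 91.2 and 93.1 in Cap-B and 39.2, 36.7 and 37.2 in Cap-B+2D (log2 fold change -1.31 ± 0.039), and Tie1 went from 63.4, 62.9 and 64.1 to 25.1, 28.4 and 26.6 (-1.29 ± 0.051). Flt1 had the smallest fall, from 41.4, 41.1 and 39.8 to 25.8, 24.9 and 25.5 (log2 fold change -0.72 ± 0.049). The Flt1 to Kdr ratio was 0.448 ± 0.020 in Cap-B and 0.674 ± 0.015 in Cap-B+2D (SD, n = 3), the highest of the 8 groups. In the lingual part it was 0.480 ± 0.010 before and 0.483 ± 0.0039 after culture.

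**Figure D3:**
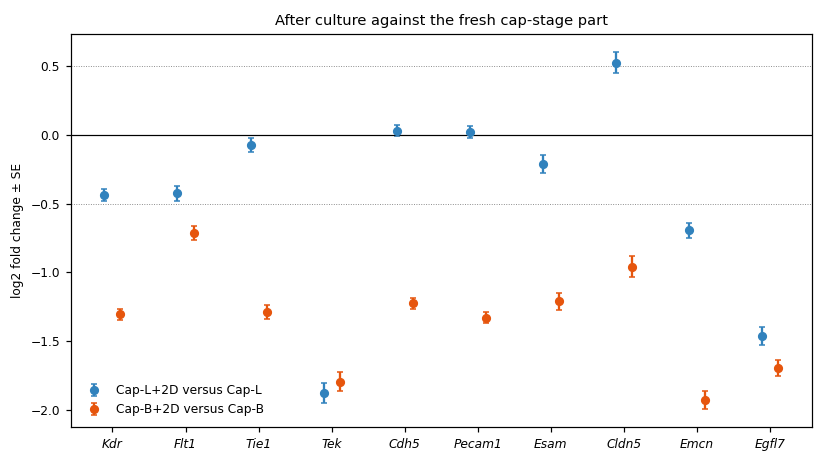
Log2 fold change after culture against the fresh cap-stage part, with its standard error (y axis), for each endothelial gene (x axis) in the lingual (blue) and buccal part (orange), 3 libraries against 3. Dotted lines mark the fold threshold of 0.5. The orange points lie below the blue ones for every gene but Tek, where -1.80 (buccal) and -1.88 (lingual) lie side by side.

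Whether culture acted differently on the sides was tested over 12 libraries, as the buccal minus the lingual change. For 8 of the 10 genes the change was lower in the buccal part, where 19.5% of 22098 genes were lower and 35.5% differed in either direction. The median was -1.11, against -0.01 over all genes. The difference was largest for Cldn5 (-1.49 ± 0.12, edgeR adjusted p = 2.1e-11), Pecam1 (-1.36 ± 0.061, 2.46e-17), Cdh5 (-1.27 ± 0.061) and Emcn (-1.25 ± 0.088), followed by Tie1 (-1.22 ± 0.072), Esam (-1.01 ± 0.096) and Kdr (-0.88 ± 0.064). Flt1 differed least of the 8, by -0.30 ± 0.075 (edgeR adjusted p = 0.00199). For Tek the difference was 0.07 with a 95% interval of -0.14 to 0.29 (edgeR adjusted p = 0.634), and for Egfl7 -0.24 with an interval of -0.45 to -0.03 (0.0649), although Egfl7 passed without Cap-L replicate 2, Cap-L+2D replicate 2 or Cap-B+2D replicate 3.

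Against each other, the cultured parts differed in 8 genes, all lower in Cap-B+2D, where 12.5% of 21195 genes were lower and 25.1% differed in either direction. The median was -1.30, against 0.00 over all genes. The size ran from Egfl7 (-0.53 ± 0.075, edgeR adjusted p = 1.49e-06), a call lost without Cap-L+2D replicate 3 or Cap-B+2D replicate 1, to Cldn5 (-1.68 ± 0.073, 3.26e-16), which was 3.20-fold lower. Flt1 (-0.41 ± 0.051) and Tek (-0.34 ± 0.091) did not reach the fold threshold. All 10 genes had every Cap-B+2D library below every Cap-L+2D library, as 28.8% of all genes had.

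The cultured parts can also be set against the bell-stage part of the same side, that is, against the tissue that developed in the embryo. Cap-L+2D was lower than Bell-L in 5 of the 10 genes, where 16.8% of 21425 genes were lower and 31.2% differed in either direction, with a median of -0.53 against -0.01 over all genes. These were Tek (-2.15 ± 0.070, 4.44-fold lower), Egfl7 (-1.88 ± 0.066), Emcn (-0.95 ± 0.056), Kdr (-0.73 ± 0.046) and Flt1 (-0.58 ± 0.053). Without Bell-L replicate 2 Esam and Pecam1 were called too, at -0.51 and -0.50, and without Cap-L+2D replicate 2 Pecam1 was. Cldn5 was the gene nearest to its bell-stage level, at 30.0, 26.5 and 26.7 normalised CPM in Bell-L and 27.6, 26.5 and 26.9 in Cap-L+2D (log2 difference -0.06, 95% interval -0.21 to 0.09). Cap-B+2D was lower than Bell-B in all 10 genes, where 16.3% of 21992 genes were lower and 31.8% differed in either direction, with a median of -1.69 against -0.01. The differences ran from -0.88 ± 0.047 (Flt1) to -2.19 ± 0.066 (Tek). In sum over the 10 genes, Cap-L+2D had 508.2 ± 4.94 normalised CPM, 32.9% below Bell-L, and Cap-B+2D had 226.7 ± 1.77, 67% below Bell-B.

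In fresh tissue the sides differed little. Neither at the cap stage, where 17.5% of 20653 genes differed, nor at the bell stage, where 12.9% of 21181 genes differed, was any of the 10 genes called between the buccal and lingual part by edgeR. The fold threshold decided this for most genes. At the cap stage 6 of the 10 (Cdh5, Tie1, Tek, Emcn, Esam and Egfl7) had an edgeR adjusted p under 0.05, and 7 an unadjusted p under 0.05. At the bell stage 7 (Cdh5, Flt1, Tie1, Tek, Emcn, Egfl7 and Cldn5) had an adjusted p under 0.05, all with lower values in the buccal part, and 7 an unadjusted p under 0.05. With DESeq2 the count of calls was also 0 at both stages. The medians were -0.18 at the cap and -0.17 at the bell stage, against -0.01 and 0.00 over all genes, with most values lower in the buccal part. At the cap stage 7 genes had every buccal library below every lingual one, as 28.4% of all genes had, and at the bell stage 8 had, as 23.4% of all genes had. The largest differences were those of Tek at the cap stage (-0.42 ± 0.061, at 23.7, 24.9 and 24.6 normalised CPM in Cap-B and 32.9, 31.6 and 35.3 in Cap-L) and of Cldn5 and Emcn at the bell stage (-0.44 ± 0.057 and -0.44 ± 0.049). Kdr and Pecam1 were close to even, with cap-stage 95% intervals of -0.12 to 0.09 and -0.10 to 0.09.

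The stage change differed between the sides for 2 of the 10 genes over 12 libraries, where 32.5% of 21931 genes differed, 14.5% with a higher and 18.0% with a lower change in the buccal part. The change of Esam was higher in the buccal part by 0.25 ± 0.080 (edgeR adjusted p = 0.0159), and that of Emcn lower by 0.22 ± 0.074 (-0.22, 0.0199). The call of Esam was lost without Bell-L replicate 2 (edgeR adjusted p = 0.0685). The call of Emcn was lost in DESeq2 (adjusted p = 0.0675) and without Cap-L replicate 3, Cap-B replicate 1, Bell-L replicate 2, Bell-L replicate 3 or Bell-B replicate 3 (edgeR adjusted p between 0.0516 and 0.0891). Cldn5 passed without Cap-L replicate 2, Bell-L replicate 2 or Bell-L replicate 3. The median over the 10 was -0.00, against -0.02 over all genes.

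Other genes of the endothelium were taken from lists of names. Their counts are to be read beside the shares of all genes called, which were 10.3%, 14.2% and 12.0% higher with stage in the undivided mesenchyme, the lingual and the buccal part, 19.6% higher and 15.9% lower in the lingual culture, and 17.9% higher and 16.6% lower in the buccal culture. Of 19 further surface and junction genes, 18 rose from Cap-W to Bell-W, with a median log2 fold change of 1.25, among them S1pr1, the receptor of sphingosine-1-phosphate (1.66 ± 0.15), Robo4, a guidance receptor of endothelium (1.62 ± 0.14), and Ptprb, the phosphatase of Tek (1.52 ± 0.25). In the parts 9 rose from Cap-L to Bell-L, led by Cd34 (1.21 ± 0.041), and 8 from Cap-B to Bell-B, led by Myct1 (0.92 ± 0.099). After culture 4 fell and 3 rose in the lingual part, near the shares of all genes, while 14 fell and 1 rose in the buccal part. S1pr1 was the gene that rose in both, by 1.13 ± 0.042 and 1.11 on the log2 scale, and Arhgef15 fell most in both (-1.71 ± 0.063 and -2.41 ± 0.064). Cd34, which fibroblasts also express, was at 214 normalised CPM in Cap-B+2D against 167 in Cap-B, opposite to the 10 endothelial genes. Of 10 transcription factors tested, 5 rose from Cap-W to Bell-W, led by Sox17 (1.87 ± 0.30). The other 5 were not called. Among them Fli1 was at -0.50 ± 0.17 on the log2 scale (edgeR adjusted p = 0.0945), with every Bell-W library below every Cap-W library, Erg -0.19 ± 0.14 and Elk3 -0.19 ± 0.11. Gata2 (0.89 ± 0.27, edgeR adjusted p = 0.0616) and Tal1 (0.63 ± 0.21, 0.0816) went the other way. Both had every Bell-W library above every Cap-W library. In the cultured buccal part 8 of the 10 fell, among them Erg (-1.24 ± 0.081) and Sox7 (-1.09 ± 0.080). In the cultured lingual part Sox7 (0.57) and Gata2 (1.03 ± 0.11) rose while Lyl1 (-1.04 ± 0.13) and Tal1 (-0.80 ± 0.10) fell.

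Genes of sprouting tip cells, the leading cells of a growing vessel, went another way in culture. Of 7 such genes, 5 rose and 1 fell from Cap-L to Cap-L+2D, with a median log2 fold change of 1.21. Angpt2 measured 1.94, 2.27 and 2.40 normalised CPM in Cap-L and 27.01, 25.88 and 27.05 in Cap-L+2D (log2 fold change 3.58 ± 0.092, edgeR adjusted p = 6.1e-21). Esm1, which tip cells secrete, went from 2.56, 1.96 and 2.61 to 15.4, 15.1 and 16.5 (2.73 ± 0.11), and Dll4, the Notch ligand of tip cells, from 11.2, 9.96 and 11.4 to 34.7, 33.0 and 33.9 (1.64 ± 0.069). Both Angpt2 and Esm1 also lay above Bell-L, by 1.88 ± 0.076 and 2.57 ± 0.11. Apln, a secreted peptide of tip cells, was the gene that fell (-0.59).

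In the buccal part 3 of the 7 rose and 2 fell. Angpt2 went from 1.04, 1.42 and 1.50 normalised CPM in Cap-B to 8.25, 7.42 and 7.95 in Cap-B+2D (log2 fold change 2.53 ± 0.14) and Esm1 rose by 1.48 ± 0.12, while Dll4 measured 9.38, 9.91 and 10.3 before and 9.52, 10.1 and 11.6 after culture, which overlap (0.04). The change was lower in the buccal than in the lingual part for 6 of the 7, including Dll4 (-1.61 ± 0.11), Esm1 (-1.27 ± 0.17) and Angpt2 (-1.06 ± 0.19). In that test, which has no fold threshold, 19.5% of all genes were lower and 35.5% differed in either direction. With stage, Angpt2 rose in all 3 comparisons, by 1.92 ± 0.28 in the undivided mesenchyme, 1.70 ± 0.11 in the lingual and 2.33 ± 0.15 in the buccal part, and 6, 3 and 5 of the 7 genes rose.

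**Figure D4:**
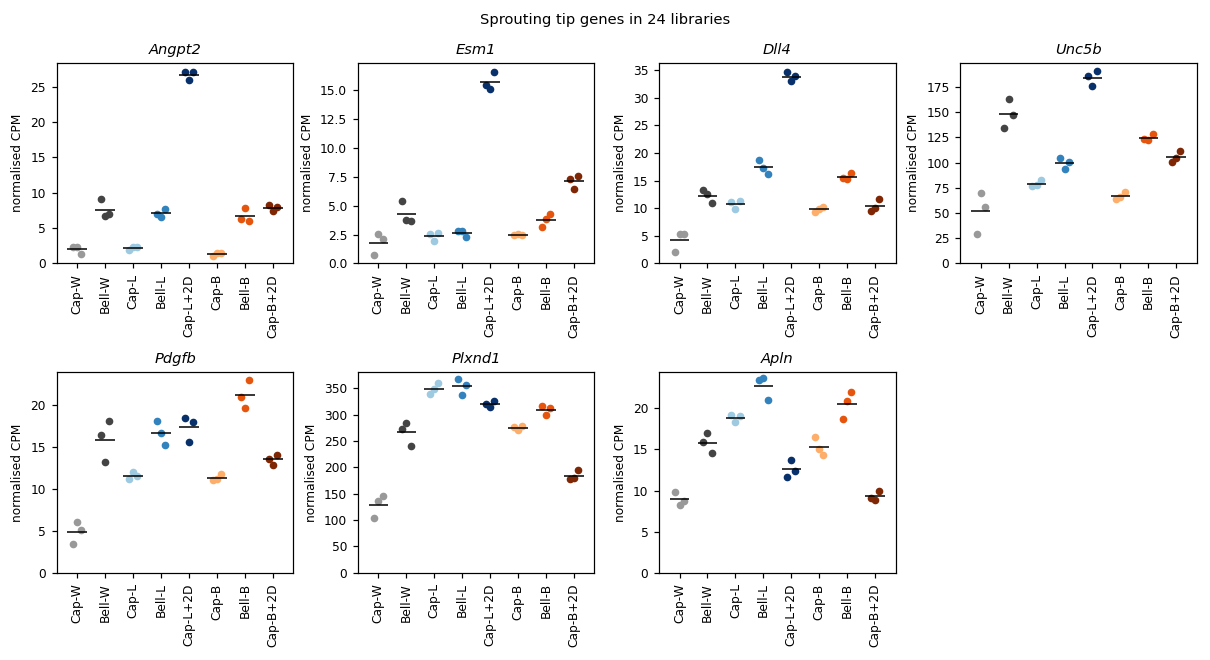
Normalised CPM (y axis, linear, from 0) of 7 genes of sprouting tip cells in the 24 libraries, by group (x axis), with each point 1 library and each line the mean of 3. Angpt2, Esm1 and Dll4 are highest in Cap-L+2D, at 25.88 to 27.05 for Angpt2, and Plxnd1 and Apln are lower in Cap-B+2D than in Cap-B.

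Markers of vessel type did not move as a block. Of 7 arterial genes, 5 rose in the cultured lingual part, including the connexins Gja5 (1.86 ± 0.098) and Gja4 (1.52 ± 0.096), and 1 fell. In the cultured buccal part 2 rose and 1 fell, against 17.9% of all genes higher and 16.6% lower. The 7 include Bmx, which lay near the floor, at 3, 6 and 2 counts in Cap-L and 13, 9 and 11 in Cap-L+2D. Gja5, which is expressed outside endothelium too, reached 40.4 normalised CPM in Cap-B+2D against 5.70 in Cap-B, while Notch4, a receptor largely of endothelium, fell there (-0.75 ± 0.058). Of the 3 venous genes, Aplnr, the apelin receptor of venous and capillary endothelium, fell in culture on both sides, from 67.2, 70.8 and 69.6 to 12.6, 11.7 and 13.5 in the lingual part (-2.46 ± 0.056) and by 1.72 on the log2 scale in the buccal part (-1.72 ± 0.050). Nr2f2 went the other way, from a mean of 42.7 to 64.2 normalised CPM in the lingual and from 160.5 to 187.7 in the buccal part. Ephb4 changed little, from 273.9 to 291.7 and from 301.6 to 270.5. Nr2f2 was 3.83-fold higher in Cap-B than in Cap-L, a comparison in which none of the endothelial members was called. The part of other cells in the Nr2f2 and Ephb4 values was not tested. Of the 3 lymphatic genes, Flt4, the VEGF-C receptor, fell on both sides (-0.94 ± 0.057 and -1.67 ± 0.062), and Lyve1, which tissue macrophages carry as well, rose from cap to bell by 5.07 ± 0.25 in the undivided mesenchyme, 3.75 ± 0.10 in the lingual and 2.53 ± 0.13 in the buccal part and fell in culture (-3.40 ± 0.25 and -3.23 ± 0.29). The lymphatic factor Prox1, also expressed in muscle, was at 31.9, 29.9 and 29.2 in Cap-B+2D, above its level in all other groups.

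Vegfa, the ligand of Kdr and Flt1, was called neither between the stages nor after culture against the fresh cap-stage part. Against the bell-stage part of the same side, every cultured library was higher. The means were 212.8 normalised CPM in Cap-L+2D against 141.8 in Bell-L, and 210.4 in Cap-B+2D against 144.7 in Bell-B. It measured 159, 156 and 159 normalised CPM in Cap-L and 143, 137 and 146 in Bell-L, and 213, 216 and 209 in Cap-L+2D (log2 fold change after culture 0.42 ± 0.041, edgeR, under the fold threshold). In the buccal part it measured 178, 177 and 180 in Cap-B, 147, 139 and 148 in Bell-B and 208, 209 and 214 in Cap-B+2D (0.20 ± 0.033). In the undivided mesenchyme its libraries overlapped between the stages (-0.18 ± 0.11). Of the 7 growth factor genes 6 were tested there, and Vegfd rose (0.83 ± 0.18) while Pgf (-0.77 ± 0.12) and Vegfc (-0.62 ± 0.14) fell, where all 10 endothelial genes rose. Angpt1, the activating ligand of Tek, was lower in the buccal than in the lingual part at both stages (-0.87 ± 0.049 and -0.53 ± 0.043) and rose in the cultured buccal part (0.53 ± 0.044). The Angpt2 to Angpt1 ratio of normalised CPM was 0.0261 in Cap-L and 0.252 in Cap-L+2D, and 0.0291 in Cap-B and 0.118 in Cap-B+2D. It was also higher at the bell than at the cap stage, at 0.111 in Bell-L, 0.150 in Bell-B, and 0.197 in Bell-W against 0.0390 in Cap-W. The cultured value was thus above the bell-stage value in the lingual part and below it in the buccal part. Nrp1, a co-receptor of Kdr that mesenchyme also expresses, rose in the cultured lingual part (1.25 ± 0.053) and lay at 0.44 ± 0.032 in the buccal part, under the fold threshold.

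Markers of other cells moved with several of these comparisons. The summed level of 8 skeletal muscle genes lay between 17.4 and 19.0 normalised CPM in Cap-L, 113 and 122 in Bell-L, 302 and 322 in Cap-L+2D, 241 and 257 in Cap-B, 990.1 and 1008 in Bell-B, and 4021 and 4140 in Cap-B+2D, while it lay between 7.97 and 18.6 in the undivided mesenchyme. All 8 were called higher in the buccal part at both stages and higher after culture on both sides. The lowest endothelial levels of the cut parts, those of Cap-B+2D, thus stood beside the highest levels of muscle genes, and the part of muscle in the result was not tested. The 9 epithelial genes summed to 310 ± 7.87 in Cap-B and 81.2 ± 0.861 in Cap-B+2D, with 8 of the 9 lower after culture, and to 442 ± 24.3 in Cap-L and 327 ± 15.2 in Cap-L+2D, with 5 lower.

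Of 8 erythroid genes, markers of red blood cells, 6 fell in the cultured lingual and 7 in the cultured buccal part, to summed levels of 9.32 ± 0.906 and 12.4 ± 1.04 from 489 ± 36.1 and 546 ± 14.9. Embryonic globins such as Hbb-y fell from cap to bell in all 3 comparisons, by 5.80 on the log2 scale in the undivided mesenchyme, so this list follows the switch of globins as well as the amount of blood. The summed level of 10 macrophage genes went from between 45.4 and 50.7 in Cap-W to between 211.6 and 228.5 in Bell-W, and all 10 rose there. The macrophage list rose in both parts and both cultures as well, with between 7 and 10 of its genes called. Macrophages and platelets carry some Pecam1 as well. The 7 platelet genes summed to at most 26.8 normalised CPM in any library, and 1 of the 4 tested rose in that comparison. The part of these cells in the Pecam1 values was not tested. The mural genes, which mark pericytes and smooth muscle of the vessel wall, were mixed: Kcnj8, a pericyte channel, rose from cap to bell in the undivided mesenchyme (4.06 ± 0.55), the lingual (4.27 ± 0.094) and the buccal part (2.52 ± 0.069), while the summed level in Cap-B+2D of 2302 ± 95.5, against 753 ± 9.09 in Cap-B, held 1104 of Acta2 and 402 of Des, which developing muscle expresses too.

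**Figure D5:**
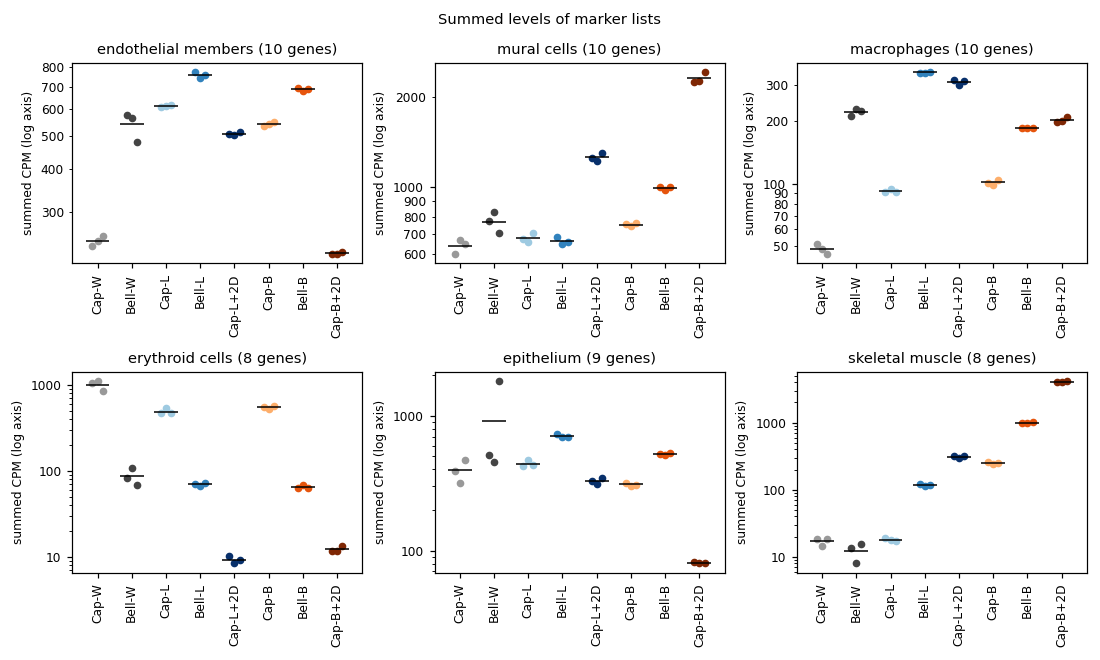
Summed normalised CPM (y axis, logarithmic) of the 10 endothelial genes and of 5 lists of markers of other cells in the 24 libraries, by group (x axis), with each point 1 library and each line the mean of 3. The endothelial sum is lowest in Cap-B+2D and Cap-W, at 226.7 and 246.8, the muscle sum is highest in Cap-B+2D, at 4065, and the erythroid sum is lowest in the cultured parts.

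How closely the 10 genes follow one another was described over all 24 libraries. Each gene's log2 level was set to a mean of 0, and the root mean square difference from the median profile of the 10 genes was taken. Kdr (0.115), Pecam1 (0.143), Cdh5 (0.146) and Tie1 (0.160) lay closest, and Tek (0.464), Cldn5 (0.420) and Egfl7 (0.374) farthest, against a median of 0.668 over 16517 genes. The 10 genes define that profile themselves, so their distances are lowered by construction beside those of other genes. The 10 other genes with the most similar profile were Scarf1, a scavenger receptor of endothelium (0.150), Icam2 (0.153), Mfng (0.160), Rasgrp3 (0.167), Robo4 (0.171), Ecscr (0.188), Nos3 (0.188), Ushbp1 (0.188), Arhgap27 (0.189) and Rasip1 (0.190). Of these, 5 were on the list of further endothelial surface and junction genes, Icam2, Robo4, Ecscr, Nos3 and Rasip1. Their likeness is a description over libraries that share groups.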

How the data were processed

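The authors deposited 1 table of raw counts of read pairs per gene for 24 libraries, made per the file headers with featureCounts 2.0.0 in unstranded mode on exons of Ensembl release 107 (GRCm39). Read pairs that matched several places or several genes were not counted. The submitters' processing notes name FastQC 0.12.1, Trimmomatic 0.39, Bowtie 1.2.3, Subread 2.0.3 and DESeq2 1.40.2, while the study's methods name STAR, and the sources also differ on the library kit and on whether 2 or 3 replicates were made, so the aligner is uncertain. Library totals ran from 20581720 to 39266497 counts, with a median of 27677163, and floors in CPM cover counting error only. Of 56748 genes, 56017 were named by identifier.

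Tests were run with edgeR 4.0.16 (quasi-likelihood test, TMM, filterByExpr) in R 4.3.3 on the libraries of each comparison: 6 for the undivided mesenchyme and between sides, 9 per side for stage and culture, 12 for the interactions and 18 for undivided against parts. A call needed an adjusted p under 0.05 and, except for interactions, an absolute log2 fold change over 0.5. The procedure was tested on simulated data. The 10 genes and all lists were chosen with earlier results of these data known. All 10 genes were named in every comparison, and of each other list the counts, the median and up to 3 called genes with the largest change, with Vegfa, Flt4, Nrp1 and Angpt1 always. Genes such as Fli1, Erg, Elk3, Sox7, Cd34, S1pr1, Apln, Plxnd1, Notch4, Prox1, Hbb-y, Acta2 and Des were also named after their values were seen.

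Alternatives were RLE factors, DESeq2 1.42.0, a joint fit of 24 libraries, a block for the replicate number, a count minimum of 10 per library or no filter, the removal of the 100 most abundant genes or of each library in turn, and, chosen after seeing the data, unscaled library totals. Intervals at 95% use the t distribution on edgeR's degrees of freedom and cover the spread between libraries. The labels give replicate numbers but name no shared animal or batch for them.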

Additional observations from a re-analysis of the deposited data

Results flagged for a closer look

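The change in culture differed between the sides for 8 of the 10 endothelial genes in a test of the difference itself (edgeR, 12 libraries). The buccal minus lingual difference in log2 fold change was -1.49 for Cldn5, -1.36 for Pecam1, -1.27 for Cdh5, -1.25 for Emcn, -1.22 for Tie1, -1.01 for Esam, -0.88 for Kdr and -0.30 for Flt1. The change with stage differed between the sides for Esam, by 0.25, and for Emcn, by -0.22, that is for 2 of the 10 genes, where 32.5% of all genes differed. Both calls were lost with 24 libraries in 1 fit (edgeR adjusted p = 0.408 and 0.396), and that of Emcn also with DESeq2, no filter or unscaled totals (adjusted p between 0.0675 and 0.0913).

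The change with stage differed between the undivided mesenchyme and the parts for all 10 genes (edgeR, 18 libraries). The difference was 1.20 for Esam, 1.02 for Tie1, 0.96 for Flt1, 0.93 for Cldn5, 0.80 for Pecam1, 0.74 for Cdh5, 0.72 for Kdr, 0.69 for Tek, 0.66 for Egfl7 and 0.65 for Emcn. The common biological coefficient of variation was 0.245 in Cap-W and 0.217 in Bell-W, against at most 0.0582 in the cut parts, and the part of this spread in the difference was not tested.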

How the results depend on the processing

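Of 2060 values of the 10 genes under alternatives, 1987 kept their direction and their side of the threshold, 25 lost the call, 18 gained it and 30 changed direction, and the cause was not tested. With unscaled library totals, Cap-L+2D versus Cap-L had 0 genes called higher and 5 lower in place of 1 and 3, with Cdh5 at -0.12 and Pecam1 at -0.13, Bell-L versus Cap-L had 1 called in place of 2, and 995 in place of 1609 of all genes had a lower stage change in the undivided mesenchyme. The summed levels were then 625.4 (Cap-L), 464.0 (Cap-L+2D), 554.5 (Cap-B), 698.8 (Bell-B) and 213.0 (Cap-B+2D). With no filter Bell-L versus Cap-L also had 1. Bell-B versus Cap-B had 2 called with no filter, with at least 10 counts and with 24 libraries in 1 fit.

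With 24 libraries in 1 fit, all genes called were 3864 and 2023 for Bell-W versus Cap-W (2155 and 882 otherwise), 959 lower for Bell-B versus Cap-B (1479), 1184 and 1397 for side by stage (3180 and 3957) and 1973 and 2075 for side by culture (3526 and 4316). Of the 10 genes, side by stage then had 0 called in either direction, and it had 0 lower with DESeq2, no filter or unscaled totals. Small side by stage differences changed direction: Egfl7 was 0.0012 with RLE, 0.0022 with DESeq2, 0.026 with no filter, 0.018 without the 100 most abundant genes, 0.038 unscaled and 0.014 in 1 fit, Pecam1 0.0027 with no filter and 0.015 unscaled, and Tie1 0.0058 unscaled. In Cap-B versus Cap-L, Pecam1 was 0.0016 with at least 10 counts.

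Leaving out each library in turn gave 9 to 10 of the genes called in Bell-W versus Cap-W (all genes 1327 to 2112 higher, 431 to 948 lower), 2 in Bell-L versus Cap-L (2989 to 3074, 1179 to 1261), 0 to 1 in Bell-B versus Cap-B (2549 to 2589, 1376 to 1444), 0 to 1 higher and 3 lower in Cap-L+2D versus Cap-L, 10 in Cap-B+2D versus Cap-B, 5 to 7 in Cap-L+2D versus Bell-L, 7 to 8 in Cap-B+2D versus Cap-L+2D, 0 to 1 higher and 0 to 2 lower in side by stage (2742 to 3557, 3357 to 3929), 8 to 9 in side by culture (3088 to 3642, 3873 to 4636) and 10 in undivided against parts (1916 to 2622, 1317 to 2283). Direction changed for Kdr (-0.061 to 0.020) and Pecam1 (-0.033 to 0.0047) in Cap-B versus Cap-L, Esam (-0.025 to 0.059) in Bell-B versus Bell-L, and Egfl7 (-0.080 to 0.046), Flt1 (-0.020 to 0.072) and Tie1 (-0.089 to 0.0034) in side by stage. Same-numbered libraries were taken as pairs only if the deviations of every pair correlated above 0.1, and no comparison met this. The nearest were Bell-B versus Cap-B (0.0942 to 0.266) and Bell-W versus Cap-W (0.0787 to 0.126), where all pairs were positive. In a fit with a replicate block, counts for Bell-W versus Cap-W were 1949 and 842 over all genes, and no count of the 10 genes changed. The lowest count of any of the 10 genes in a library was 92, well above the floor of 3 counts.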
